A study of Mus musculus with 6 samples.

Results

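The nuclear genes of oxidative phosphorylation were described in 2 innate lymphocyte populations sorted from the mouse kidney. They were taken by symbol: every gene whose name starts with Ndufa, Ndufb, Ndufc, Ndufs, Ndufv, Uqcr, Cox4, Cox5, Cox6, Cox7, Cox8 or Atp5, together with Sdha, Sdhb, Sdhc and Sdhd, and without the copies marked -ps. This gave 95 of the 23841 genes in the table. Of these, 40 were placed in complex I, 4 in complex II, 8 in complex III, 18 in complex IV and 17 in ATP synthase, and the remaining 8 were the complex I assembly factors Ndufaf1 to Ndufaf8, which the symbol rule also takes in but which are not subunits. Ndufa4 and its paralog Ndufa4l2 were placed in complex IV, where the Ndufa4 protein is found.

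The first population was ILC1 (type 1 innate lymphoid cells, resident tissue lymphocytes), sorted as NK1.1+ NKp46+ CD3- cells that carry CD49a and have low to intermediate CD49b. It was set against cNK cells (conventional natural killer cells, the circulating cytotoxic lymphocytes), sorted as NK1.1+ NKp46+ CD3- cells with high CD49b. Both came from kidneys of naive wild-type C57BL/6 mice, with 3 pools per population. The titles number the pools 1 to 3 in both populations, without saying whether pools of the same number share mice. Age, sex and the number of mice per pool are not given in the labels, and nothing says that the pools came from separate animals. The p-values therefore cover the spread from pool to pool, which may be technical.

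Oxidative phosphorylation takes place in the inner mitochondrial membrane. Complexes I and II pass electrons from NADH and succinate to ubiquinone, complex III passes them on to cytochrome c, and complex IV passes them to oxygen. Complexes I, III and IV pump protons as they do so, and ATP synthase uses the returning protons to make ATP. Most subunits are encoded in the nucleus and imported, while a small set of core subunits is encoded in mitochondrial DNA (mtDNA), so assembly needs RNA from both genomes. Complex II is the exception, with nuclear subunits alone, and also works in the citric acid cycle. The transcription factors NRF1, GABPA (an ETS family factor, also called NRF2) and YY1 are known regulators of many nuclear subunit genes.

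The promoters are shown for 4 genes. They include the complex II pair Sdha and Sdhb, whose fold changes were unlike. The others are Cox6a1, one of the subunits of highest level, and Ndufb4, a complex I subunit with a wide range over the libraries. Each is the stretch of 250 bases before the transcription start in RefSeq (build GRCm38.p6), read 5′ to 3′ on the strand of the gene. Capitals mark matches, on either strand, to the NRF1 motif (GCGC, any base, then TGCGC), the GABPA motif CCGGAAG or the YY1 motif AAGATGGCG. Sdha lies on chr13:74350241-74350490 (minus strand), Sdhb on chr4:140961021-140961270 (plus strand), Cox6a1 on chr5:115348959-115349208 (minus strand) and Ndufb4 on chr16:37654369-37654618 (minus strand).
Sdha: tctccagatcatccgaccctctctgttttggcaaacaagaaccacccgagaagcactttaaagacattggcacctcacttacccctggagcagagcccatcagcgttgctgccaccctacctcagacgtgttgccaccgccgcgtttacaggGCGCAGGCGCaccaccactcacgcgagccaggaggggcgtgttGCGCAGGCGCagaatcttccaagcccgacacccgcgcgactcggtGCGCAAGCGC
Sdhb: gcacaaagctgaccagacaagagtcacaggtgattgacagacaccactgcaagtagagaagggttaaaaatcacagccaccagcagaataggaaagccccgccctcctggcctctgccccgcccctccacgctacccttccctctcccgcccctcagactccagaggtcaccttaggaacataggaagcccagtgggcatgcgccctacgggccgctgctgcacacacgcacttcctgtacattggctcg
Cox6a1: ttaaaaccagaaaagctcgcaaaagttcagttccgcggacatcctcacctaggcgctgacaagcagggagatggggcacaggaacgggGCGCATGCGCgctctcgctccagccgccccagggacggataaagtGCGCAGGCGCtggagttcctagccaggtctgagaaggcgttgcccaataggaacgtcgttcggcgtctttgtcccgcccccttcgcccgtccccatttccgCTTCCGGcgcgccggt
Ndufb4: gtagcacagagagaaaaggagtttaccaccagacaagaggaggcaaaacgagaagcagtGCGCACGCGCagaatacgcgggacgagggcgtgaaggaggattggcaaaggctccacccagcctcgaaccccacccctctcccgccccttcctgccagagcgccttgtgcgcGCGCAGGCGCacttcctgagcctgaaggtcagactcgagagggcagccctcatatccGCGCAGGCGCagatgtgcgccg
The Sdha and Ndufb4 stretches held 3 NRF1 matches each, Cox6a1 held 2 NRF1 matches and 1 GABPA match next to the start, and Sdhb held none of the 3 motifs in this stretch. With 3 matches each, Sdha, Cox6a1 and Ndufb4 held the most of all the member stretches found. Their number of matches is thus not typical of the members, nor of genes of such level or range. The stretch of Cox8a, the highest complex IV gene per kilobase, held 0 matches. So did that of Ndufc1, whose libraries ranged 6.08-fold, beside 5.74-fold for Ndufb4. RefSeq promoters were found for 75 of the 95 genes, with 80 start sites between them, and the motifs were counted over the 250 bases before and the 50 bases after each start. The NRF1 motif was in 20 of the 80 promoters, and in 4.60% of 32851 promoters of all genes. The GABPA motif was in 19 of 80 (23.8%), beside 8.86% of all promoters, and the YY1 motif in 8 of 80, beside 1.40%. No motif holds another within it, and a match is a run of letters, not a measured binding site.

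Sequencing depth ran from 22633440 to 28327265 counts per library, and a single count equalled 0.0353 to 0.0442 CPM (counts scaled to library size). The sorts matched their gates: Itga1, which encodes CD49a, had 185, 116 and 110 CPM in ILC1 pools 1, 2 and 3, against 7.09, 13.7 and 12.8 CPM in cNK pools 1, 2 and 3. Levels here and below are CPM scaled by TMM, a method that sets libraries to a common size while trimming extreme genes, and values are given in the order of pools 1, 2 and 3. Some libraries stood apart within their own population. The mtDNA-encoded subunit genes took 1.23%, 1.94% and 5.88% of the counts in ILC1 and 2.84%, 11.3% and 9.22% in cNK. A list of 20 kidney tubule markers, such as the proximal tubule genes Slc34a1 and Kap, took 0.146%, 0.0926% and 0.368% in ILC1 and 0.152%, 0.626% and 0.551% in cNK.

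The nuclear subunits were nearly all fitted lower in ILC1 than in cNK, but the pools of 1 population spread as widely. Summed over the 87 subunit genes, the level was 8666, 13451 and 15050 CPM in ILC1, against 13002, 25820 and 18579 CPM in cNK. ILC1 pool 1 was the lowest and cNK pool 2 the highest, and cNK pool 1 lay below both ILC1 pools 2 and 3, so the populations overlapped. Between pools of the same number the cNK sum was the higher each time, but the labels do not tie such pools together. The means were 12389 ± 3322 CPM in ILC1 and 19134 ± 6427 CPM in cNK (SD, n = 3 pools each). In bulk samples such as these, fewer cells of a type and less RNA per cell cannot be told apart.

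Of the 95 genes, 93 passed the filter on low counts. The pseudogene Ndufa11b and the lung and hypoxia isoform Cox4i2 did not. By edgeR's quasi-likelihood test with Benjamini-Hochberg adjustment at 0.05, 0 of the 93 were called higher in ILC1 and 0 higher in cNK. Of all 16144 tested genes 5.76% were called, 4.07% as higher in ILC1 and 1.69% as higher in cNK. Without adjustment, at p under 0.05, edgeR gave 0 genes higher in ILC1 (11.4% of all genes) and 6 higher in cNK (6.63% of all genes). DESeq2 called 0 in either direction, where it called 7.14% of all genes higher in ILC1 and 4.29% higher in cNK, and gave 22 genes higher in cNK without adjustment (8.72% of all genes). limma-voom called 0 as well, where it called 3.91% and 1.71% of all genes, and gave 4 higher in cNK without adjustment (6.8% of all genes). The lowest adjusted p of the 93 genes by edgeR was 0.217.

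The direction was shared all the same. The fitted log2 fold change of ILC1 over cNK was below 0 for 89 of the 93 genes, where 49.2% of all tested genes were below 0, and its median was -0.70, against 0.01 over all tested genes. The genes share their libraries, so this count does not stand for 93 separate observations. The unadjusted counts moved with single pools. Leaving out cNK pool 1 gave 71 genes higher in cNK (11.1% of all genes), and leaving out ILC1 pool 3 gave 19 (12.8%). Leaving out ILC1 pool 2 gave 4, where 1280 of 16831 genes were so. Leaving out ILC1 pool 1, cNK pool 2 or cNK pool 3 gave 0 each time, beside 4.82%, 4.38% and 4.0% of all genes. Without ILC1 pool 1, 1 gene was higher in ILC1 at this threshold, where 1470 of 16832 genes were. The median log2 fold change was -0.44 when ILC1 pool 1 was left out and -0.36 when cNK pool 2 was.

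**Figure D1:**
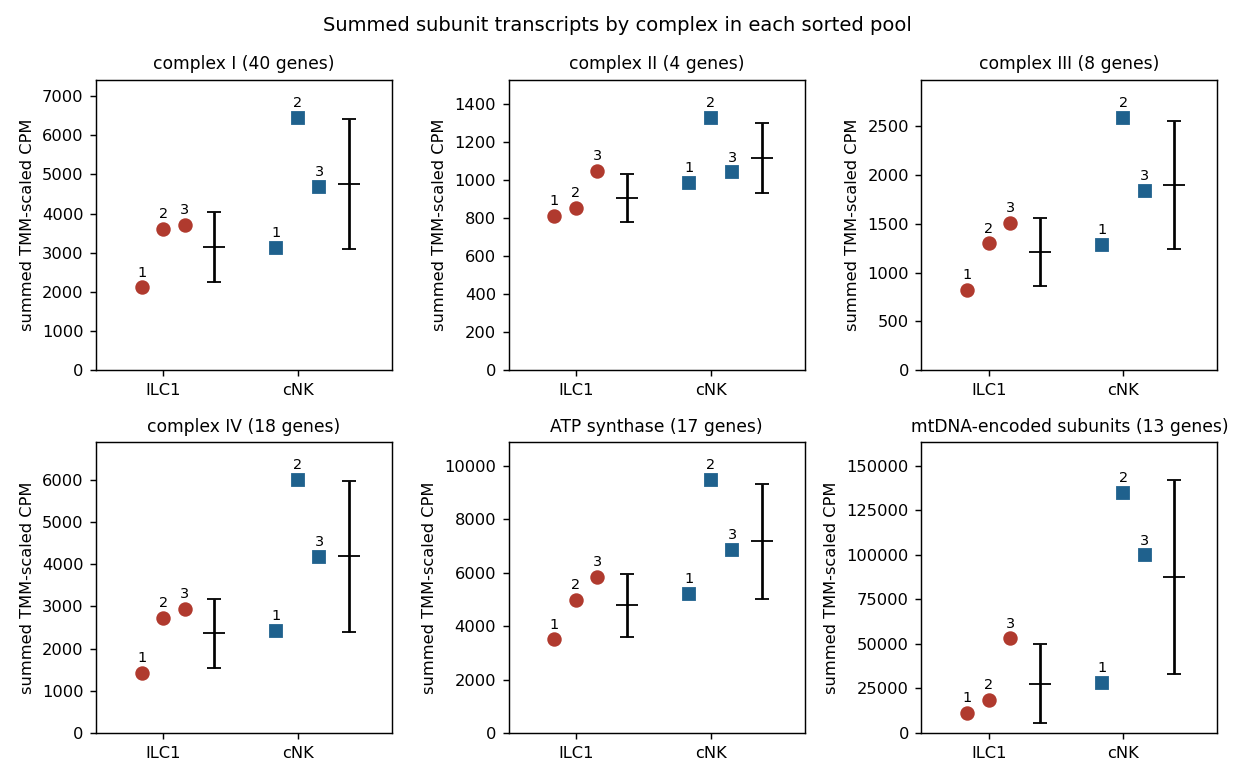
Summed TMM-scaled CPM of the genes of each complex (y axes, from 0) in each sorted pool, ILC1 as red circles and cNK as blue squares, numbered by pool, with the mean and SD of 3 pools beside them. In every panel ILC1 pool 1 is the lowest point, cNK pool 2 is the highest, and cNK pool 1 lies below ILC1 pool 3.

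The order of the libraries was nearly the same from gene to gene. ILC1 pool 1 held the lowest level for 88 of the 93 genes, where this was so for 26.8% of all tested genes. The highest level was in cNK pool 2 for 87, against 23.2% of all tested genes. cNK pool 1 lay below ILC1 pool 3 for 83 genes and below ILC1 pool 2 for 73, and cNK pool 3 lay above all ILC1 pools for 80. The shares of all tested genes in these orders were not counted, so whether they are particular to these genes was not tested. All 3 cNK pools lay above all 3 ILC1 pools for 3 genes, Ndufb2, Uqcrc1 and Cox6a2, a smaller share than the 9.06% among all tested genes. No gene had all 3 ILC1 pools above all 3 cNK pools, where 15.0% of all tested genes did. Within a population, the highest pool was a median 1.98 times the lowest in ILC1 and 2.21 times in cNK, and the mean of cNK was a median 1.62 times that of ILC1.

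**Figure D2:**
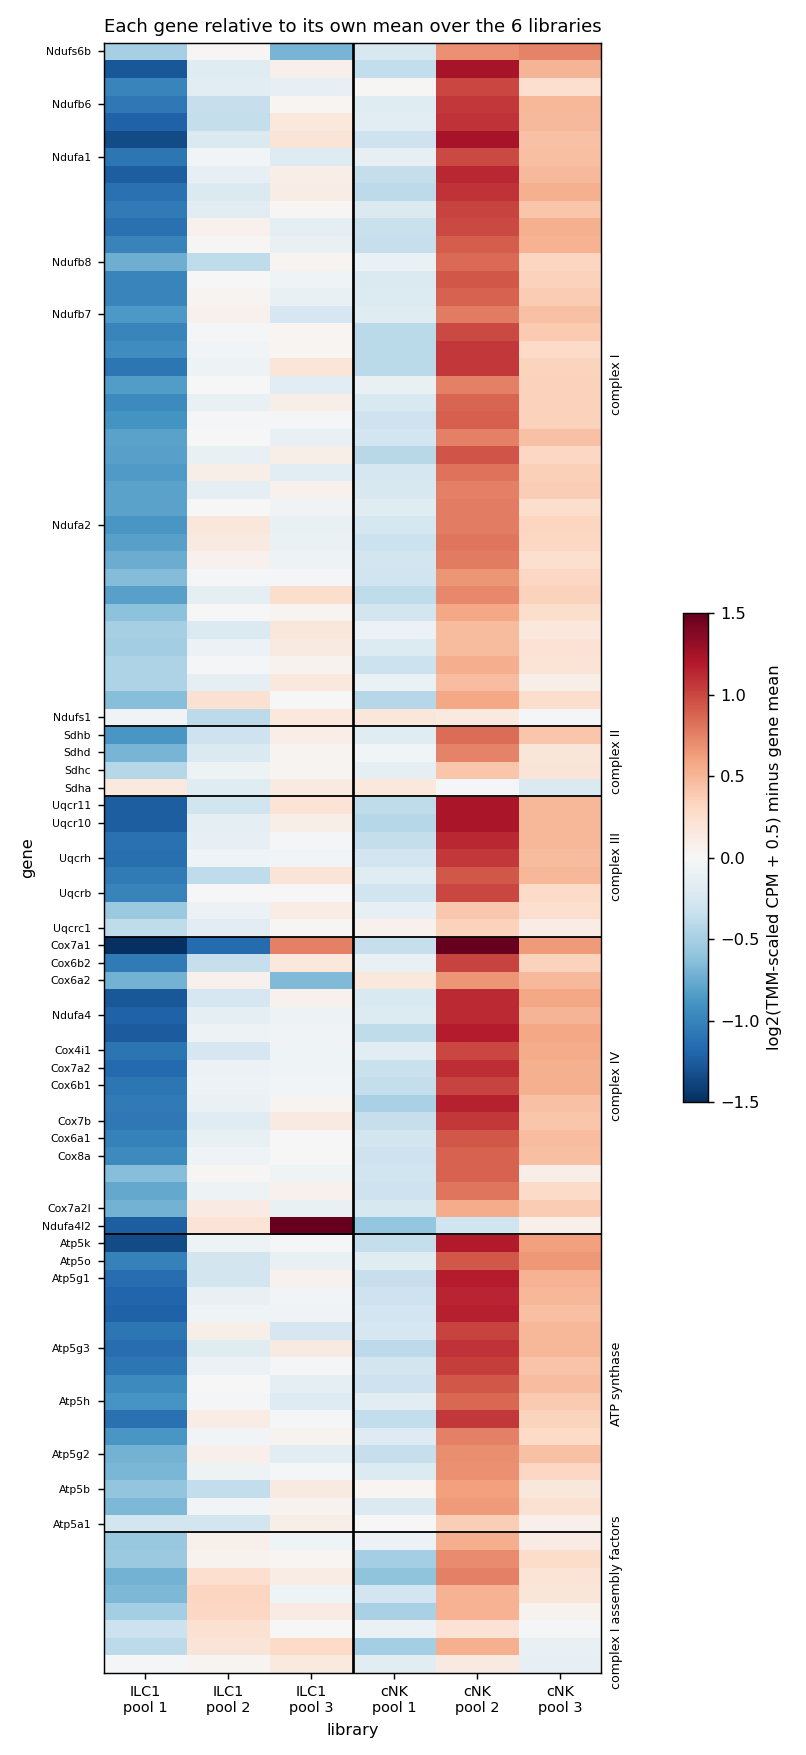
Each of the 93 tested genes (rows, grouped by complex and ordered by fold change, with the genes chosen by the naming rule labelled) in the 6 libraries (columns), as log2 of TMM-scaled CPM plus 0.5 minus the mean of that gene over the libraries. Blue is below and red above the mean, and the colours stop at the ends of the scale. ILC1 pool 1 is blue and cNK pool 2 red in nearly every row. Sdha and Ndufa4l2 depart from this, and Ndufs1 is pale throughout, with ILC1 pool 2 its bluest cell.

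Complex I, the NADH dehydrogenase, was lower in ILC1 in sum, at 2117, 3606 and 3704 CPM, against 3129, 6453 and 4679 CPM in cNK. All 39 tested genes were fitted below 0, with a median log2 fold change of -0.66 and a range of -1.48 to -0.18. The complex has an arm in the matrix, which takes electrons from NADH, and an arm in the membrane, which pumps protons. The 3 genes with an unadjusted p under 0.05 encode accessory subunits of the membrane arm.

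Ndufa1, a small membrane subunit, had 76.6, 158 and 143 CPM in ILC1 and 150, 325 and 223 CPM in cNK. Its log2 fold change was -0.89 ± 0.37 (SE; edgeR unadjusted p = 0.0499, adjusted p = 0.278). Ndufb6, another membrane subunit, had 17.4, 29.1 and 38 CPM in ILC1 and 32.6, 77.9 and 52.8 CPM in cNK (log2 fold change -0.95 ± 0.40, edgeR adjusted p = 0.273). For both genes cNK pool 1 lay among the ILC1 pools, and cNK pools 2 and 3 lay above them. Ndufb8 had 29.5, 37.8 and 50.8 CPM in ILC1 and 46.1, 89.2 and 61.6 CPM in cNK (log2 fold change -0.74 ± 0.31, edgeR adjusted p = 0.274). The Ndufb6 transcript is overlapped over 39.0% of its length by Smim27 on the other strand, and 19.7% of the Ndufb8 transcript is overlapped by another gene on the same strand, so reads there may be assigned to either gene.

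Among the core subunits of the matrix arm the log2 fold changes ran from -0.66 for Ndufv2 to -0.18 for Ndufs1. Ndufs1, which carries iron-sulfur clusters of the NADH-oxidising module, had 80.4, 63.5 and 93.6 CPM in ILC1 and 94.6, 92.4 and 82.1 CPM in cNK. This was the smallest fold change in complex I, at -0.18 ± 0.20, and its pools had another order than most subunits, with ILC1 pool 2 the lowest. Ndufv1, which binds NADH, had a log2 fold change of -0.35 ± 0.24.

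Per kilobase of transcript, the complex I genes of highest level were Ndufa1, Ndufa2 and Ndufb7, with 300.3, 206 and 188 CPM per kb in ILC1 and 555, 301 and 306 CPM per kb in cNK. Ndufb4, whose promoter is shown above, had 28, 60.1 and 72.0 CPM in ILC1 and 52.7, 161 and 97.3 CPM in cNK, and a log2 fold change of -0.96 ± 0.48. Its 6 libraries thus ran from the lowest ILC1 pool to the highest cNK pool with cNK pool 1 below ILC1 pools 2 and 3. Ndufb2, one of the genes without overlap, had 1.81, 3.59 and 3.71 CPM in ILC1 and 4.12, 8.63 and 4.95 CPM in cNK (log2 fold change -0.96 ± 0.42, edgeR adjusted p = 0.301). The most negative fold change belonged to Ndufs6b, a processed pseudogene by annotation, with 0.281, 0.615 and 0.180 CPM in ILC1 and 0.430, 1.27 and 1.34 CPM in cNK. The retrocopies Ndufb4c and Cox6c2 are also annotated as processed pseudogenes, and reads may be split between such copies and their parents. The largest copy left out, Ndufs5-ps, held 29.6% as many counts as Ndufs5, and no other that could be set beside its parent held over 6.85%.

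The 8 complex I assembly factors, which help to build the complex and do not stay in it, had smaller fold changes than most subunits, a difference that was not tested. Their summed level was 122, 184 and 171 CPM in ILC1 and 132, 226 and 170 CPM in cNK, with overlap between the populations. The median log2 fold change was -0.17, and 6 of 8 were below 0. Ndufaf7, known from human cells as an arginine methyltransferase, had 34.0, 35.8 and 38.4 CPM in ILC1 and 30.9, 38.3 and 31.9 CPM in cNK (log2 fold change 0.10 ± 0.17).

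In complex II, the succinate dehydrogenase, the 4 genes had unlike fold changes. Sdha, the flavoprotein that oxidises succinate, had 477, 382 and 474 CPM in ILC1 and 481, 424 and 371 CPM in cNK. Its pools overlapped, with a log2 fold change of 0.06 ± 0.19 (edgeR adjusted p = 0.878), a sign that changed with the scaling: it was -0.02 with upper-quartile factors. Sdhb, the iron-sulfur protein that takes the electrons from Sdha, had 126, 187 and 248 CPM in ILC1 and 204, 412 and 308 CPM in cNK. Its fold change was -0.72 ± 0.34 (edgeR adjusted p = 0.332), and cNK pool 1 lay between ILC1 pools 2 and 3. Sdhc and Sdhd, the membrane anchors, had log2 fold changes of -0.32 ± 0.22 and -0.59 ± 0.29.

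The count of Sdhb over that of Sdha gave 0.264, 0.489 and 0.523 in ILC1 and 0.425, 0.972 and 0.831 in cNK. The ratio is over counts, not molecules, and is to be read between libraries only. It was lowest in ILC1 pool 1 and highest in cNK pool 2, the same ends as for the summed subunits. Complex II in sum had 813, 852 and 1049 CPM in ILC1 and 985, 1328 and 1040 CPM in cNK, the narrowest range of the 5 complexes.

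Complex III, the cytochrome bc1 complex, had 823, 1299.8 and 1507 CPM in ILC1 and 1281, 2589 and 1835 CPM in cNK. All 8 genes were fitted below 0, with a median log2 fold change of -0.83. The large core proteins had the fold changes nearest to 0. Uqcrc1 had 304, 353 and 399 CPM in ILC1 and 415, 503 and 426 CPM in cNK, with no overlap, and a log2 fold change of -0.35 ± 0.19 (edgeR adjusted p = 0.399). Uqcrc2, its partner, had one of -0.35 ± 0.24.

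The most negative fold changes were those of the small subunits Uqcr11 and Uqcr10. Uqcr11 had 45.1, 87.3 and 124 CPM in ILC1 and 82.0, 251 and 152 CPM in cNK (log2 fold change -0.92 ± 0.49, edgeR adjusted p = 0.392). Here cNK pool 1 lay below ILC1 pools 2 and 3. Uqcrfs1, the Rieske iron-sulfur protein, had 90.2, 145 and 215 CPM in ILC1 and 167, 359 and 266 CPM in cNK. Per kilobase, Uqcrb, Uqcr10 and Uqcrh were the highest of the complex, with 289, 217 and 221 CPM per kb in ILC1 and 468, 408 and 399 CPM per kb in cNK. Cyc1, the cytochrome c1 subunit whose name falls outside the symbol rule, had a log2 fold change of -0.48 ± 0.34.

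Complex IV, cytochrome c oxidase, had the largest ratio of summed levels. The sum was 1412, 2723 and 2941 CPM in ILC1 and 2413, 5987 and 4169 CPM in cNK, so that the cNK mean was 1.78 times the ILC1 mean, beside ratios of 1.24 to 1.57 for the other complexes; these ratios were not tested against each other. The median log2 fold change was -0.83, and 16 of 17 tested genes were below 0. Complex IV over complex II within a library was 1.74, 3.20 and 2.80 in ILC1 and 2.45, 4.51 and 4.01 in cNK. cNK pool 1 again lay below ILC1 pools 2 and 3.

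Cox4i1, the ubiquitous form of subunit 4, had 175, 315 and 358 CPM in ILC1 and 335, 749 and 551 CPM in cNK. Its log2 fold change was -0.95 ± 0.38 (edgeR unadjusted p = 0.0405, adjusted p = 0.250), and it ranged from -1.26 to -0.65 with 1 library left out. Cox4i2, the form that replaces it in lung and under hypoxia, stayed between 0.0401 and 0.432 CPM in all 6 libraries and was not tested. Subunit 6a is likewise made in a ubiquitous and a muscle form. Cox6a1, the ubiquitous one, had 210, 391 and 422 CPM in ILC1 and 351, 810 and 586 CPM in cNK (log2 fold change -0.77 ± 0.38, edgeR adjusted p = 0.356). Cox6a2, the heart and skeletal muscle form, had 1.45, 2.83 and 1.51 CPM in ILC1 and 3.04, 4.54 and 3.95 CPM in cNK. It was one of the genes without overlap (log2 fold change -0.99 ± 0.39, edgeR unadjusted p = 0.0381, adjusted p = 0.241).

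The other isoform pairs had the same layout, with a high ubiquitous form and a tissue form at a far lower level. Cox7a2, the ubiquitous form of subunit 7a, had 75.8, 160 and 164 CPM in ILC1 and 135, 366 and 247 CPM in cNK. Cox7a1, the muscle form, had 0.442, 1.06 and 5.33 CPM in ILC1 and 2.22, 13.2 and 4.90 CPM in cNK (log2 fold change -1.57 ± 1.0, edgeR adjusted p = 0.466). Like the kidney tubule share, Cox7a1 was highest in cNK pool 2, as were 87 of the 93 genes, and ILC1 pool 3 was the highest ILC1 pool. The rest of the order differed. Cox7a1 was higher in ILC1 pool 3 than in cNK pool 3, and higher in ILC1 pool 2 than in ILC1 pool 1. The tubule share was lower in both cases. The part of tubule RNA in its level was not tested. Cox7a2l, a relative known as a factor of supercomplexes of complexes III and IV, had a log2 fold change of -0.46 ± 0.29. Its role in these cells was not tested. Cox6b1 and Cox6b2, the ubiquitous and the testis form of subunit 6b, averaged 242 ± 86 and 0.727 ± 0.492 CPM in ILC1, and 429.7 ± 189 and 1.68 ± 0.869 CPM in cNK (SD, n = 3 pools each).

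Ndufa4, which is part of the complex IV enzyme, had 106, 223 and 232 CPM in ILC1 and 213, 536 and 349 CPM in cNK (log2 fold change -0.97 ± 0.42, edgeR adjusted p = 0.295). Its paralog Ndufa4l2, a hypoxia-induced gene, had 0, 0.854 and 3.67 CPM in ILC1 and 0.287, 0.454 and 0.737 CPM in cNK. It was the one complex IV gene fitted above 0, at 1.62 ± 1.32 (edgeR adjusted p = 0.563). This rested on ILC1 pool 3: without that pool the fold change was -0.16, and by limma-voom with all pools it was -0.13.

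Per kilobase, Cox8a was the highest gene of the complex, with 736 CPM per kb in ILC1 and 1201 in cNK, and Cox6a1 and Cox6b1 followed within the complex. Cox8a, the ubiquitous form of the small subunit 8, had 254, 472 and 489 CPM in ILC1 and 398, 908 and 675 CPM in cNK (log2 fold change -0.71 ± 0.38). Cox7b, a small subunit encoded on the X chromosome, had a log2 fold change of -0.78 ± 0.43. The genes Cox7b2, Cox8b and Cox8c were not among the genes analysed here.

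ATP synthase had 3501, 4971 and 5850 CPM in ILC1 and 5194, 9462 and 6856 CPM in cNK, and all 17 genes were fitted below 0 (median log2 fold change -0.75). The head of the enzyme holds the catalytic sites. Atp5b, the beta subunit at which ATP is made, had 1127, 1312 and 1863 CPM in ILC1 and 1730, 2601 and 1901 CPM in cNK (log2 fold change -0.53 ± 0.27, edgeR adjusted p = 0.364). Atp5a1, the alpha subunit, had 812, 812 and 1048 CPM in ILC1 and 986, 1272 and 1036 CPM in cNK, the smallest fold change of the complex at -0.30 ± 0.21. In both genes cNK pools 1 and 3 were close to ILC1 pool 3.

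The most negative fold changes of the complex were those of Atp5k and Atp5o. Atp5o, which encodes the oligomycin sensitivity-conferring protein that ties the head to the peripheral stalk, had 9.84, 16.8 and 18.8 CPM in ILC1 and 17.9, 39.6 and 32.4 CPM in cNK. It had the lowest p of the 93 genes, with a log2 fold change of -0.98 ± 0.37 (edgeR unadjusted p = 0.0317, adjusted p = 0.217). Its transcript is overlapped over 29.0% of its length on the same strand and 48.6% on either strand by other genes, so its level is uncertain. Atp5k, subunit e of the membrane part, had 19.7, 47.8 and 49.7 CPM in ILC1 and 39.3, 115 and 77.8 CPM in cNK (log2 fold change -0.99 ± 0.48, edgeR adjusted p = 0.346).

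The c ring, which turns as protons pass, is encoded by 3 genes whose mature proteins are the same. Atp5g3 had 157, 306 and 381 CPM in ILC1 and 266, 738 and 492 CPM in cNK, and a log2 fold change of -0.83 ± 0.45. Atp5g1 had one of -0.95 ± 0.45 and Atp5g2 one of -0.56 ± 0.32. Atp5b, Atp5g3 and Atp5h (subunit d of the peripheral stalk) were the highest of the complex per kilobase, at 748, 389 and 378 CPM per kb in ILC1 and 1084, 690 and 637 CPM per kb in cNK.

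**Figure D3:**
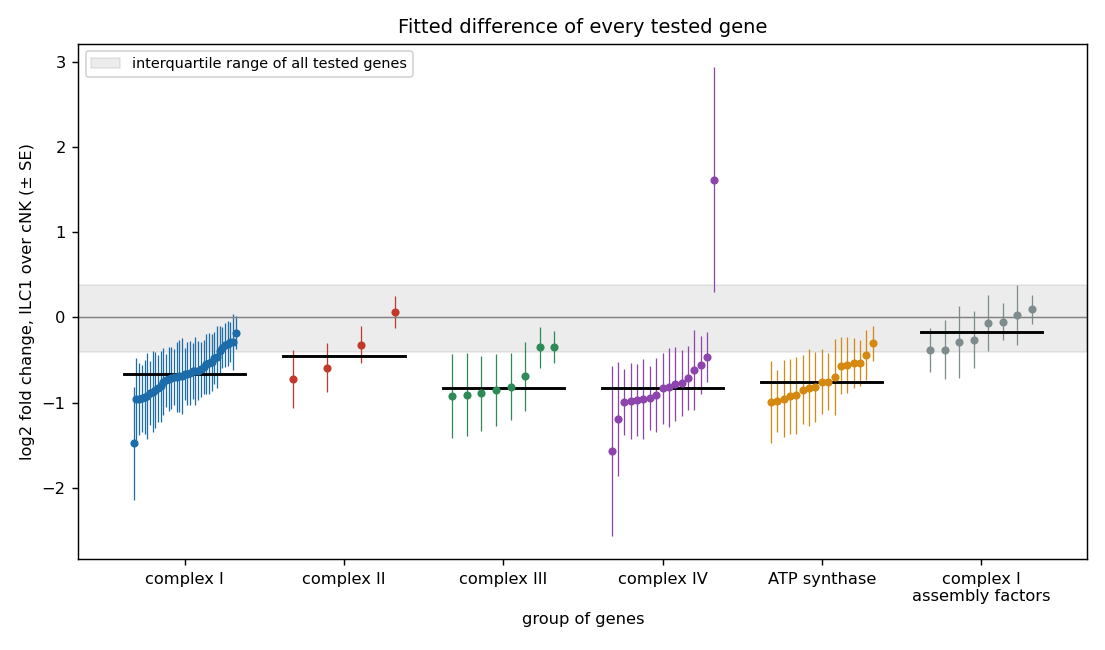
Fitted log2 fold change of ILC1 over cNK (y axis) of each of the 93 tested genes, with its SE, grouped by complex and ordered within it. Black bars are the medians, which run from -0.83 in complexes III and IV to -0.17 in the assembly factors, and the grey band is the interquartile range of all tested genes (-0.40 to 0.38). Ndufa4l2 is the high point of complex IV, with the widest error.

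The log2 fold change, with its sign, rose with the length of the coding sequence. Over the 89 genes with an annotated coding sequence and a fold change, Spearman's rho of coding length with the log2 fold change was 0.64, and over 13063 protein-coding genes it was 0.28. Both are descriptions over genes, which share the same 6 libraries. The median fold change was -0.82 for the 53 genes of up to 500 coding bases, -0.57 for the 23 of 500 to 1000 bases and -0.31 for the 12 of 1000 to 2000 bases. Over all tested protein-coding genes the same length classes had medians of -0.37, -0.11 and 0.06. The medians were 0.22 for 2000 to 4000 coding bases and 0.30 above 4000, so the trend over all genes crossed 0. The longest coding sequences were those of Ndufs1 (2181 bases) and Sdha (1992 bases), both among the genes with the smallest fold changes. The part of transcript length in the difference was not tested.

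**Figure D4:**
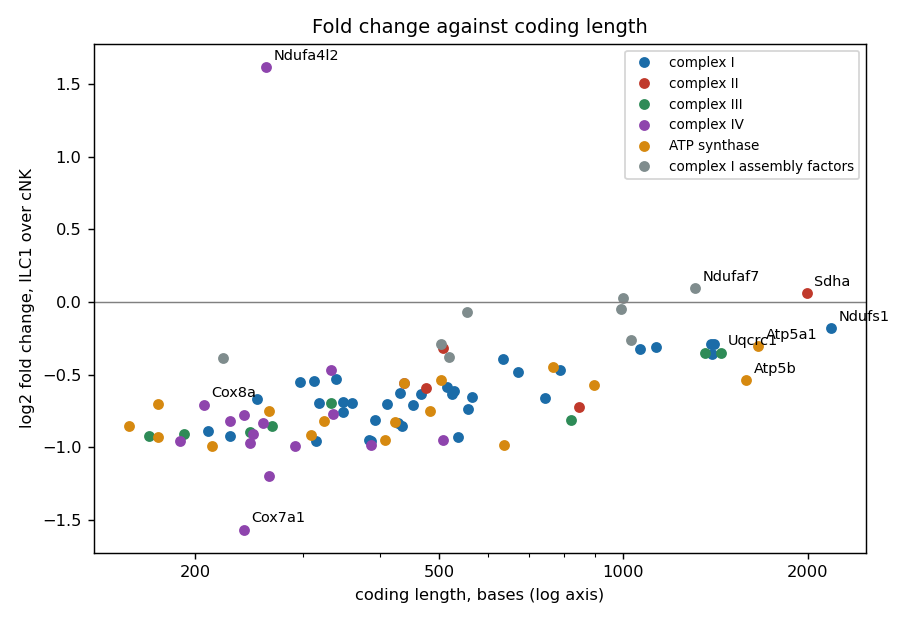
Log2 fold change of ILC1 over cNK (y axis) against the coding length in bases (x axis, log scale) for the 89 genes with a coding sequence, coloured by complex. Most genes of up to 500 coding bases lie between about -1 and -0.5, with Cox7a1 and Cox6b2 below and Ndufa4l2 above them, and Sdha, Ndufs1, Uqcrc1 and Atp5a1 lie to the right and nearer to 0.

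The subunits encoded in mtDNA, the partners of the nuclear ones, spread further in the same libraries. Their summed level was 11179, 18744 and 53066 CPM in ILC1 and 27867, 134591 and 99644 CPM in cNK. The 3 ILC1 pools thus spanned 4.75-fold and the 3 cNK pools 4.83-fold, and cNK pool 1 lay below ILC1 pool 3. Between pools of the same number the cNK sum was again the higher each time. All 13 genes were fitted below 0, with a median log2 fold change of -1.70, and edgeR, DESeq2 and limma-voom each called 0 of them. Lower in ILC1 without adjustment, at p under 0.05, DESeq2 gave 12 (8.72% of all genes) and limma-voom 1 (6.8%), which is near its share of all genes. edgeR gave 2 (6.63%), mt-Co3 (log2 fold change -1.82 ± 0.77, edgeR adjusted p = 0.276), a core subunit of complex IV, and mt-Atp8 (-1.52 ± 0.62, adjusted p = 0.264), a membrane subunit of ATP synthase. Leaving out ILC1 pool 3, edgeR called 6 of the 13 higher in cNK, beside 4.03% of all genes. Leaving out both ILC1 pool 3 and cNK pool 2, it called 1, and leaving out any other single library it called 0, with a lowest adjusted p of 0.13 to 0.671.

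Their share of the counts averaged 3.02 ± 2.5% in ILC1 and 7.78 ± 4.40% in cNK (SD, n = 3 pools each; two-sided exact permutation p = 0.2, where the smallest p that 3 against 3 allows is 0.1). The ratio of mtDNA-encoded to nuclear subunit counts was 1.29, 1.39 and 3.53 in ILC1 and 2.14, 5.21 and 5.36 in cNK. It was higher in ILC1 pool 3 than in cNK pool 1, so the populations overlapped here too.

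Kidney tubule cells are rich in mitochondria, and their markers were set beside these levels. The shares given above were highest in cNK pools 2 and 3, then in ILC1 pool 3, as for the nuclear and mtDNA-encoded subunits. Between the lower libraries the order differed: the tubule share was lower in ILC1 pool 2 than in ILC1 pool 1, while both sets of subunits were higher there. The 20 markers summed to 896 to 3324 CPM in ILC1 and 1496 to 7474 CPM in cNK, and 19 of 20 were fitted below 0 (median log2 fold change -1.92), with 0 called by edgeR and 0 by limma-voom. DESeq2 called 7 lower in ILC1 (4.29% of all genes), and edgeR gave 9 lower in ILC1 without adjustment (6.63% of all genes). All had counts in every library but Slc22a8, which had 0 in ILC1 pool 1. The proximal tubule gene Slc34a1 had 68.4, 63.5 and 55.8 CPM in ILC1 and 57.7, 419 and 434 CPM in cNK. Umod, of the thick ascending limb, had 449, 54.1 and 1309 CPM in ILC1 and 404, 1059.9 and 764 CPM in cNK. The proximal gene was thus high in cNK pools 2 and 3 alone, and Umod also in ILC1 pool 3.

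With the tubule share as a covariate, the median log2 fold change of the 93 genes was -0.14, and 78 were below 0. With the mtDNA-encoded share as a covariate it was -0.02, and 54 were below 0. Both shares were mostly higher in cNK, though the pools of the populations overlapped. With 6 libraries there is little to separate the shares from population. The part of tubule RNA or of the mitochondrial share in the difference was thus not tested. The markers of macrophages, monocytes and dendritic cells had higher sums in ILC1, at 4666 to 8863 CPM in ILC1 and 2337 to 2611 CPM in cNK, and edgeR called 6 of 20 higher in ILC1 and 1 higher in cNK. T cell markers summed to 665 to 1032 CPM in ILC1 and 424 to 503 CPM in cNK, with 1 of 12 called higher in ILC1. B cell markers summed to 621 to 710 CPM in ILC1 and 160 to 193 CPM in cNK, with 1 of 5 tested genes called higher in ILC1. Of all tested genes, edgeR called 4.07% higher in ILC1 and 1.69% higher in cNK. In all 3 lists the summed levels did not overlap, and the part of these cells in the subunit levels was not tested either.

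**Figure D5:**
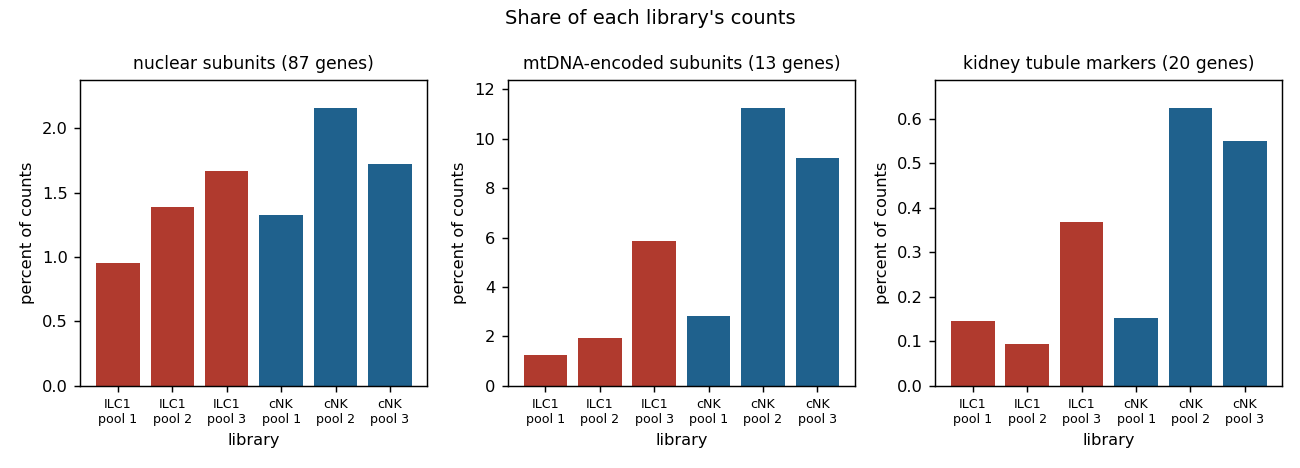
Percent of the counts of each library (y axes, from 0) taken by the 87 nuclear subunit genes, the 13 mtDNA-encoded subunit genes and the 20 kidney tubule markers, with ILC1 pools in red and cNK pools in blue. cNK pools 2 and 3 are the highest in all 3 panels, and ILC1 pool 3 is above cNK pool 1 in each.

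Further lists of mitochondrial genes mostly had smaller fold changes. Of 48 assembly factors of all complexes, which take in the Ndufaf genes described above, edgeR and limma-voom called 0 (median log2 fold change -0.11). DESeq2 called 1 lower in ILC1, where it called 4.29% of all genes so. At an unadjusted edgeR p under 0.05, 1 gene was above 0 (11.4% of all genes) and 2 were below 0 (6.63% of all genes). Cmc1, a complex IV assembly factor, came nearest, with 18.0, 27.7 and 24.3 CPM in ILC1 and 38.1, 47.4 and 53.3 CPM in cNK, with a log2 fold change of -0.99 ± 0.23 (edgeR adjusted p = 0.0586, DESeq2 adjusted p = 0.00195). Unlike most subunits, it had no overlap between the populations. All 3 cNK pools lay above all 3 ILC1 pools, as for 9.06% of all tested genes.

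Of 18 tested electron carrier genes edgeR, DESeq2 and limma-voom called 0 (median log2 fold change -0.05). At an unadjusted p under 0.05 they gave 0, 1 and 0, and the 1 was lower in ILC1 (8.72% of all genes by DESeq2). Cycs, cytochrome c itself, had 194, 341 and 372 CPM in ILC1 and 323, 782 and 519 CPM in cNK (log2 fold change -0.84 ± 0.38, edgeR adjusted p = 0.318), the order of libraries seen in the subunits. Of 19 citric acid cycle and pyruvate dehydrogenase genes the same tools called 0, and 0 at an unadjusted p (median -0.24). Cs, the citrate synthase that opens the cycle, had 242, 171 and 184 CPM in ILC1 and 237, 188 and 170 CPM in cNK, for a log2 fold change of 0.00 ± 0.22. Of 8 tested genes from a list mostly of mitochondrial carriers and channels 0 were called, also unadjusted (median -0.52). Slc25a5, the main ADP/ATP carrier of these libraries by count, had a log2 fold change of -0.55 ± 0.30, and Ucp2 one of 0.22 ± 0.18.

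Among 17 regulators of mitochondrial gene expression edgeR and limma-voom called 0 and DESeq2 called 2, Tfam lower in ILC1 (4.29% of all genes) and Myc higher in ILC1 (7.14%), a share near that of all genes (median log2 fold change 0.17). These 2 genes were also the ones with an unadjusted edgeR p under 0.05. Tfam, which packages mtDNA and starts its transcription, had 41.7, 48.9 and 41.8 CPM in ILC1 and 58.9, 67.8 and 66.8 CPM in cNK (log2 fold change -0.55 ± 0.16, edgeR adjusted p = 0.126, DESeq2 adjusted p = 0.00771). Myc, a growth regulator, had 127, 144 and 129 CPM in ILC1 and 83.8, 77.4 and 94.1 CPM in cNK (log2 fold change 0.65 ± 0.17, edgeR adjusted p = 0.0782, DESeq2 adjusted p = 0.00136). In neither gene did the populations overlap, where 9.06% of all tested genes lay as Tfam did and 15.0% as Myc did. The factors whose motifs were counted above had log2 fold changes of -0.07 ± 0.31 for Nrf1, 0.35 ± 0.28 for Gabpa and 0.12 ± 0.20 for Yy1.

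Stress genes of cell isolation were set beside these as a further list. Of 6 heat shock genes edgeR called 1, Dnajb1, a co-chaperone, which had 1998, 2169 and 1834 CPM in ILC1 and 1030.1, 890.1 and 988 CPM in cNK (log2 fold change 1.05 ± 0.18, edgeR adjusted p = 0.0194). Of all tested genes, edgeR called 4.07% higher in ILC1. The 6 genes took 2.76%, 2.70% and 2.18% of the counts in ILC1 and 1.89%, 1.42% and 1.36% in cNK. Their part in the subunit levels was not tested.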

How the data were processed

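RNA sequencing was done on total RNA of sorted kidney ILC1 and cNK cells. Values were the raw gene counts that the authors deposited, 1 column per library. A further 2 deposited columns, the averaged signal of each population, were not used. Per the submitters' processing notes, the tools were Trimmomatic 0.38, STAR 2.6.1, DESeq2 1.30.0 and R 4.03, on build GRCm38. How reads were counted, on which annotation and whether by strand is not stated in those sources. Every gene had at least 5 counts in total, and 1 entry without a gene identifier was left out. Of the identifiers, 23836 matched GENCODE M21, from which positions and lengths were taken, with 1 transcript per gene (the APPRIS principal one where given). Levels per kilobase divide by that transcript's length, which makes those of Ndufb2, Ndufab1 and Atp5g1, with long chosen transcripts, uncertain.

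The deposited counts went unchanged into edgeR 4.0.16 under R 4.3.3 (TMM, filterByExpr by population, robust quasi-likelihood fit on population, Benjamini-Hochberg adjustment at 0.05 over 16144 genes). A log2 fold change divides ILC1 by cNK, and its SE comes from the F statistic. Alternatives were other scalings and filters, DESeq2 1.42.0, limma-voom 3.58.1, a block for the pool number, tubule and mtDNA shares as covariates, and leaving out libraries. The test was also tried on simulated data. Promoter sequences are from RefSeq (GRCm38.p6), matched by symbol or synonym.

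Genes named in the text were those with an unadjusted edgeR p under 0.05, the 3 of highest level per kilobase and the extremes of fold change in each complex, the 4 Sdh genes, tissue isoforms, the mtDNA-encoded subunits and called genes of the other lists; further genes were named for their role. The members and lists were chosen with earlier results of these data known. Intervals on levels and shares are SD over 3 pools, and those on log2 fold changes are the SE of the fit to all libraries.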

Additional observations from a re-analysis of the deposited data

How the results depend on the processing

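The count of 0 genes called by edgeR in either direction held under every scaling, filter, test, covariate and left-out library tried, and changed with the replicate block alone. With pool number as a block, edgeR called 30 of the 93 genes higher in cNK and 0 higher in ILC1, where 675 of 16144 genes were called higher in cNK. The labels do not tie pools of one number to the same mice, and the deviations of same-numbered pools correlated at 0.53, -0.13 and 0.06, so a pairing by number is not established. ILC1 pool 3 correlated best with cNK pool 2 (0.59).

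The median log2 fold change stayed below 0 throughout, from -1.01 to -0.36 with 1 library left out, and at -0.52 when ILC1 pool 3 and cNK pool 2 were both left out. With 1 library left out the medians ran from -0.97 to -0.35 in complex I, -0.66 to -0.26 in complex II, -1.15 to -0.45 in complex III, -1.20 to -0.49 in complex IV and -1.09 to -0.43 in ATP synthase, and the difference in the mtDNA-encoded share ran from -7.23 to -3.01 percentage points. Plain CPM moved the median of all genes by 0.22 and gave -0.44 for the members. With the tubule share as covariate the medians were -0.14 over all members, -0.14 in complex I and -0.16 in complex III. These are the medians that moved by more than the SD between pools. Those of complex II, complex IV and ATP synthase moved by less and are not listed. With the mtDNA-encoded share they were -0.017 over all members, -0.00033 in complex I, -0.056 in complex II, -0.013 in complex III, -0.024 in complex IV and -0.062 in ATP synthase. The covariates overlap with population, and the cause was not tested.

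Single genes changed sign in 15 cases. With the mtDNA-encoded share as covariate these were Atp5g2 (0.0089), Atp5g3 (0.063), Cox7b (0.061), Ndufa2 (0.0032), Sdha (-0.011), Sdhc (0.0083), Uqcr10 (0.072), Uqcr11 (0.056) and Uqcrb (0.027). Ndufa4l2 had -0.13 by limma-voom and -0.22 with both of those pools left out, and ran from -0.16 (no ILC1 pool 3) to 2.20 with 1 library left out. Ndufs1 had 0.047 with plain CPM, and Sdha had -0.016 with upper-quartile factors and ran from -0.029 (no cNK pool 3) to 0.16 with 1 library left out. Counting error is small beside the spread between pools for all but genes near 1 CPM, such as Ndufa4l2, Cox6b2 and Ndufs6b.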
